A study of Mus musculus with 6 samples.

Results

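The cytosines described here lie in 5′ UTRs or in the first exon of a transcript, the stretch of a gene that follows its transcription start. They were taken from the authors' deposited tables of cytosines whose methylation differed between LSK cells of wild-type (WT) mice and of mice lacking Tet1 (Tet1 KO). A listed cytosine was a member where its annotation began with 5′ UTR, or began with exon or non-coding and named exon 1. This rule, which uses no methylation value, found 422 of the 6756 listed sites, in 210 genes. LSK cells are bone marrow cells without lineage markers that carry Sca-1 and Kit, and they contain haematopoietic stem and progenitor cells. They were flow sorted from 6-month-old mice, 3 samples of the WT group and 3 of the Tet1 KO group, with the strain given as CD57BL/6 for both and no treatment in either. The labels do not describe the Tet1 allele, name no mouse for a sample, and give no level by which the sort or the loss of Tet1 could be checked.

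Tet1 encodes a dioxygenase that oxidises 5-methylcytosine and so opens a route to its removal. Promoters and first exons of many genes form CpG islands that are kept free of methylation, and methylation that spreads over the first exon is known to accompany silent genes. Bisulfite sequencing, used here in its enhanced reduced representation form, reads CpG-rich fragments and does not tell 5-methylcytosine from its hydroxymethyl form. The authors' deposited tables give 1 difference per cytosine over all samples, in percentage points, and list cytosines from 25 percentage points upward. Differences are KO minus WT, as the list titles and the sign of each value give it. With no mouse named, replicates of a group may be technical. Levels per sample and coverage were not used here, so no sample values, replicate spread or depth stand beside the differences.

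To show the 5′ ends concerned, the 30 bases that precede the RefSeq start are printed for the genes with the most hypermethylated sites that have 1 start in the table, and for the apoptosis inhibitor gene Bcl2. They come from RefSeq on GRCm38.p6 and run 5′ to 3′ on the gene's strand, with CpG dinucleotides in capitals; the listed cytosines lie downstream of them and are placed on mm9, whose sequence was not used here.
Oxct2a, chr4:123323680-123323709 on the minus strand: tccctggcagtatcctcctccctgctctgt
Gpr158, chr2:21367537-21367566 on the plus strand: gacttgaagcCGccctacaagggtttggtt
Ajm1, chr2:25580100-25580129 on the minus strand: ctgcaggtacatctaacataggcatggagg
Avpr1a, chr10:122448469-122448498 on the plus strand: gcaccaaagagaaaaggacaaatcaccaac
Pcdh8, chr14:79771313-79771342 on the minus strand: tataaagaCGgaggCGgCGctCGccagCGc
Bcl2, chr1:106714291-106714320 on the minus strand: cttcctcccCGgccCGtcctccCGcccCGc
The window from 250 bases before to 50 bases after the start held 44 CpGs at Bcl2, 15 at Gpr158, 14 at Pcdh8, 13 at Avpr1a and 5 each at Oxct2a and Ajm1, where the median of 32851 such windows was 7. The letters TATAAA, or TTTATA for the other strand, occurred in 13.6% of all windows and in those of Pcdh8 and Avpr1a among these 6. The starts of Oxct2a and Ajm1 were thus not CpG-rich in this window, and that of Bcl2 held more CpGs than 97.8% of windows.

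The first question was in which direction the 5′ ends of genes differed without Tet1. They gained methylation almost throughout: 411 of the 422 sites were hypermethylated in the authors' deposited tables, and 11 were hypomethylated (2.61%, with an exact 95% interval by Clopper-Pearson of 1.31 to 4.62% that covers counting error only). Of all listed sites, 7.19% were hypomethylated. Joining neighbours of the same sign that lay under 1000 bp apart gave 205 regions of gain and 9 of loss, so 4.21% of the regions lost methylation (exact interval 1.94 to 7.83%), where the share over regions of all features was 10.3%. Sites were hypermethylated alone in 201 of the 210 genes, and a hypomethylated site was found in the other 9.

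The share of losses was close to that of promoters and below that of the later exons. Of 446 promoter regions 17 were hypomethylated (3.81%), 0.39 percentage points less than in 5′ UTRs and first exons (two-sided Fisher's exact test, p = 0.832 and, adjusted over 3 comparisons, 0.832), which does not show that they are alike. In exon 2 and later exons 40 of 375 regions were hypomethylated (10.7%). The share in 5′ UTRs and first exons differed from it by -6.46 percentage points (Fisher's exact test, odds ratio for a gain 2.72, adjusted p = 0.0116). Against all 4171 regions outside 5′ UTRs and first exons, 442 of them hypomethylated (10.6%), this share differed by -6.39 percentage points (odds ratio for a gain 2.70, adjusted p = 0.00495 by the same exact test). Both differences failed when sites under 40 percentage points were left out (adjusted p = 0.740 and 0.229, Fisher's exact test), with 4 hypomethylated regions left, and for 5′ UTR sites alone (adjusted p = 0.370 for both), and that from later exons failed on the forward strand (0.0722). The level in WT cells limits the direction in which a cytosine can be listed, and that limit and the loss of Tet1 cannot be told apart here; the regions share 6 samples and are not replicates.

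**Figure D1:**
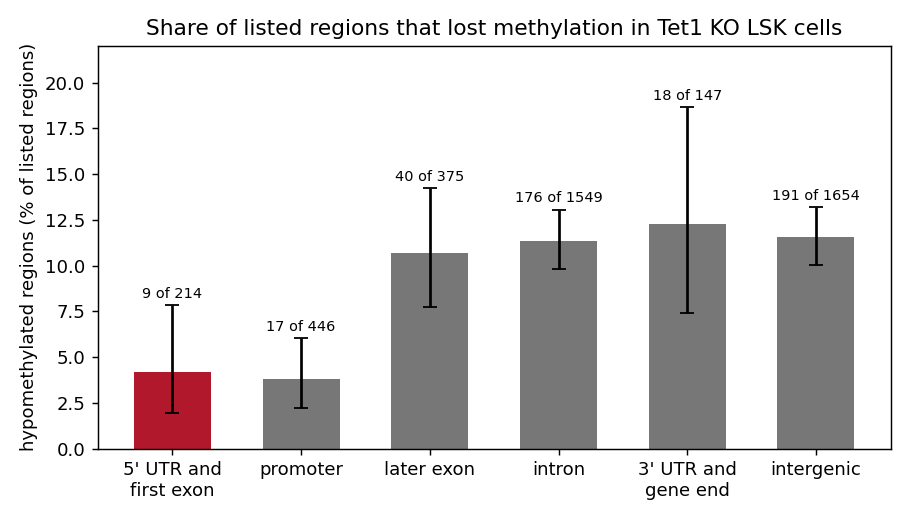
Share of listed regions that were hypomethylated in Tet1 KO cells, in percent, by annotated feature; bars give the share, lines the exact 95% interval, and labels the counts. The 5′ UTR and first-exon bar (4.21%) stands beside that of promoters (3.81%) and under that of later exons (10.7%).

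Gains were also large. Hypermethylated 5′ UTR and first-exon sites had a median difference of 44.8 percentage points per the authors' deposited table (range 25.3 to 89.8, middle 50% of sites from 36.0 to 56.5). The medians were 41.2 for promoter sites, 45.8 for later exons, 39.5 for introns and 40.6 for intergenic sites; these were not tested against each other. A gain of at least 60 percentage points was listed for 83 of the 411 sites (20.2%), where the share was 12.3% of all hypermethylated sites, 11.1% of promoter sites and 19.7% of later-exon sites. By region, whose means even out neighbouring sites, it was 14.1% for 5′ UTRs and first exons, 7.46% for promoters and 9.85% for later exons. Hypomethylated sites had a median of -41.9 percentage points (range -67.3 to -26.9).

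Most members lay in sequence annotated as exon rather than as untranslated. There were 305 such sites in 145 genes, 301 of them hypermethylated with a median of 45.8 percentage points per the authors' deposited table. The 98 sites in 5′ UTRs fell in 65 genes, 94 were hypermethylated and their median gain was 41.7 percentage points. Of those 98 sites, 80 lay in exon 1 and 18, in 15 genes, in exon 2 or 3. The 19 sites in first exons of non-coding transcripts fell in 9 genes, with 16 gains and 3 losses, and all 3 losses were at the ribosomal RNA gene Rn45s.

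Sites lay close behind their starts, and gains of similar median size were listed at all distances. The distance to the nearest annotated start was 100 bp at the least, since closer sites are labelled promoter, with a median of 470.5 bp, and 336 of the 422 sites lay within 1000 bp. The 89 hypermethylated sites between 100 and 250 bp had a median gain of 45.1 percentage points per the authors' deposited table. The medians were 42.9 between 250 and 500 bp (120 sites), 44.9 between 500 and 1000 bp (120 sites) and 47.8 between 1000 and 2000 bp (60 sites). Of the 11 losses, 7 lay within 250 bp of a start, none between 250 and 2000 bp, and 4 farther away, 3 of these in Rn45s. For 10 sites in 6 genes the nearest start belonged to another gene than the exon did; all genes named here are those of the exon.

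**Figure D2:**
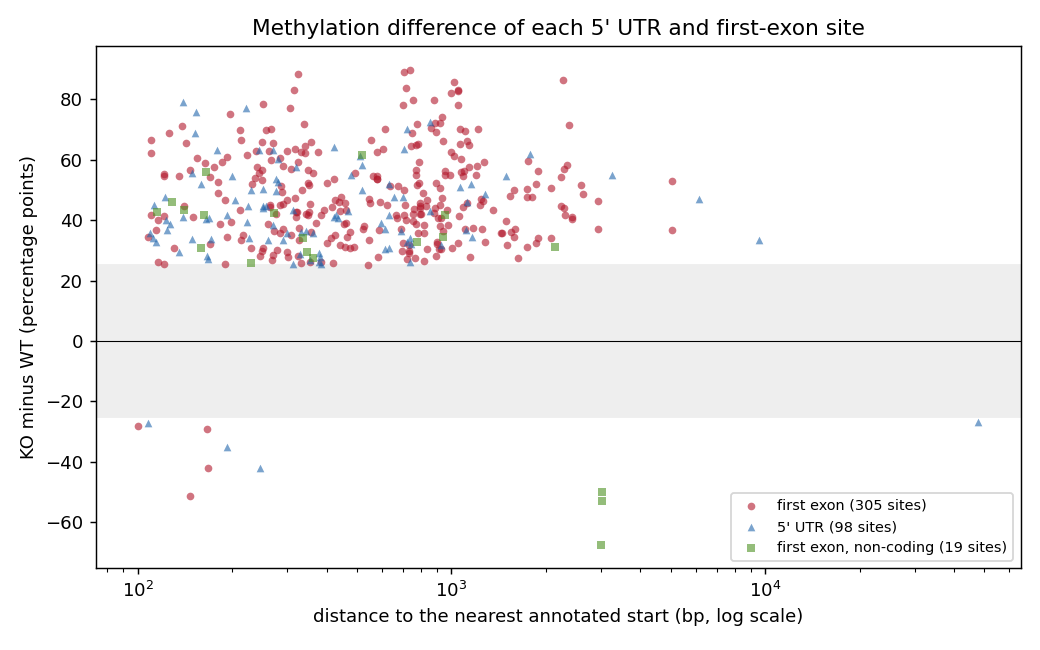
Methylation difference (KO minus WT, percentage points) of each of the 422 sites against its distance to the nearest annotated start (bp, log scale), with the symbol giving the annotation; the grey band is the range under 25 percentage points that the tables do not list. Gains span the list's range at all distances, and 7 of the 11 losses lie within 250 bp.

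Gains often lay near other gains, which was also so in later exons and less so in introns and intergenic sequence. There were 411 gains in 205 regions here, 717 in 335 in later exons and 703 in 429 in promoters. Introns had 1961 gains in 1373 regions and intergenic sequence 2266 in 1463. These differences were not tested. Of the 205 hypermethylated regions 100 held at least 2 sites, up to 10 in 1 region, and 1 of the 9 hypomethylated regions did. Only sites of the same sign were joined and losses were few, so these counts do not compare how gains and losses cluster. Of the 411 gains 333 (81.0%) had another gain of any feature within 1000 bp, and 1 had a loss there, again in Rn45s. The same share was not computed for other features. A listed site outside 5′ UTRs and first exons lay within that distance of 108 of the gains. Of the regions of at least 2 sites 74 lay on 1 strand alone and 27 on both; close sites on a strand can share reads, so they are not independent measurements. Both strands of the same CpG were listed in 2 cases, Slitrk1 with 44.0 and 57.0 percentage points and Limd1 with 58.3 and 50.0, per the authors' deposited table. In the 97 genes with at least 2 gains, the highest and lowest listed site of a gene differed by a median of 16.2 percentage points. Beyond the 5′ end, 28 of the 210 genes also had promoter sites (52, none of them hypomethylated), 43 had intron sites (84, with 1 loss) and 13 had later-exon sites (22). Sites at gene ends were a loss in Asphd2 (-37.3 percentage points) and gains in Atxn7l3b (37.6) and Btbd11 (28.1).

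Pde4dip, which encodes myomegalin, a scaffold of the Golgi and centrosome, had the most sites. Its 12 gains per the authors' deposited table lay on chromosome 3 (mm9) at the first exons of 2 transcripts. The 10 sites from 97570889 to 97571168, in exon 1 of 17, ranged from 32.2 to 83.0 percentage points. The other 2, at 97671857 and 97671880 in the 5′ UTR of a transcript of 4 exons, were at 29.3 and 26.8, below all of the first 10.

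Oxct2a, a testis gene for an enzyme of ketone body use, had the largest mean gain among the 10 genes richest in sites. All 9 fell in a short stretch of its only exon (chromosome 4, 123000150 to 123000219), 703 to 772 bp from the start. On the reverse strand, in order of position, they were listed at 56.7, 64.9, 79.8 and 68.9 percentage points. On the forward strand they were at 64.6, 89.8, 83.7, 89.0 and 78.2 per the authors' deposited table. A promoter site of the gene was higher still, at 90.3. The gain was thus above 50 percentage points at all 9 sites and on both strands.

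Gpr158, an orphan receptor gene, had 8 sites in exon 1 of 11 (chromosome 2, 21289925 to 21290775), from 27.5 to 82.0 percentage points with a median of 44.5 per the authors' deposited table. The 3 highest, 82.0, 62.4 and 61.4, were neighbours between 21290187 and 21290209, with lower values on each side. Ajm1, a gene of apical cell junctions, had 8 sites in its only exon (chromosome 2, 25434342 to 25434733), from 32.9 to 59.3 with a median of 45.6 percentage points. All 8 lay on the forward strand. Phactr3, a regulator of phosphatase 1 and actin, had 4 sites in its 5′ UTR at 50.4, 35.7, 26.1 and 27.7 percentage points. They were followed by 3 in the rest of exon 1 at 37.9, 33.3 and 66.7 (chromosome 2, 177876888 to 177877192), so neither part was uniformly higher.

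The ribosome assembly gene Rrs1 had 7 sites in its only exon (chromosome 1, 9535844 to 9536220), all on the reverse strand, from 25.3 to 54.6 with a median of 29.1 percentage points per the authors' deposited table. Its mean of 33.0 was the lowest of the 10 genes. Avpr1a, the gene of a vasopressin receptor, had 5 sites in its 5′ UTR at 47.6, 29.6, 27.3, 40.6 and 33.8 percentage points and 1 in the rest of exon 1 at 41.7 (chromosome 10, 121885677 to 121886220). Its 2 promoter sites were listed at 31.6 and 36.8, within the range of the 5′ UTR sites.

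**Figure D3:**
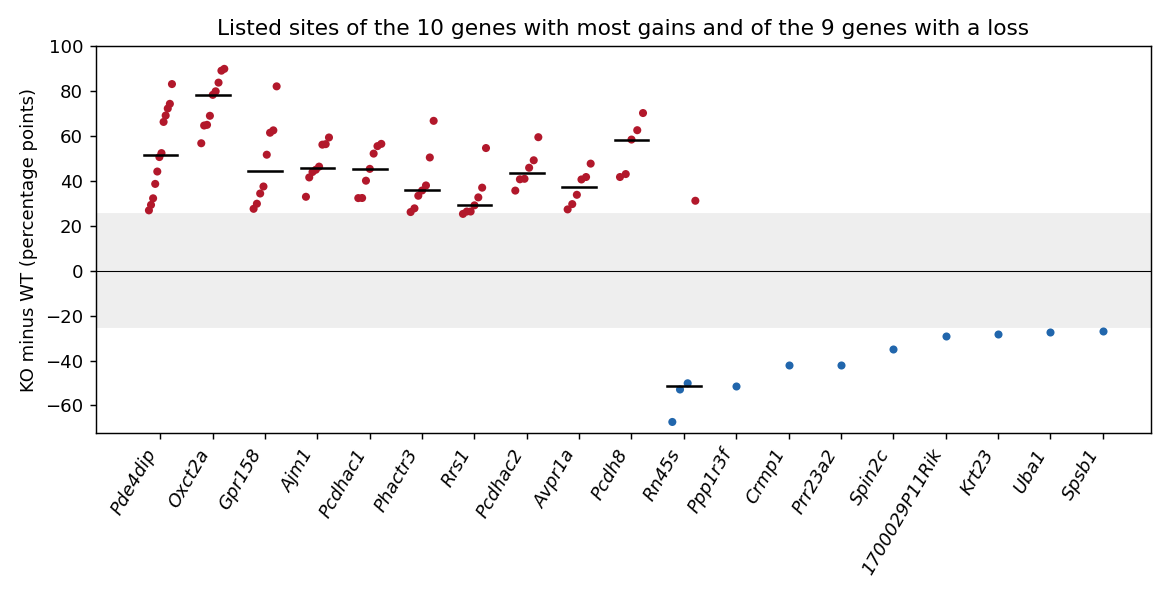
Methylation difference (KO minus WT, percentage points) of every 5′ UTR and first-exon site of the 10 genes with the most gains (Pcdh8 taken from a tie at 5 sites by its larger mean) and the 9 genes with a loss; each point is a site, black lines are medians of genes with at least 2 sites, and the grey band is the unlisted range. The 9 sites of Oxct2a lie at 56.7 or higher, and 8 of the 9 genes with a loss have 1 site each.

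The largest mean gains, among other genes with at least 2 sites, were at genes of various functions. Kcnn3, a calcium-activated potassium channel gene, had 2 sites in exon 1 of 8 at 85.6 and 82.6 percentage points per the authors' deposited table (chromosome 3, 89325108 and 89325132). Tmem179, a transmembrane protein gene, had 3 at 71.8, 88.2 and 83.0 (chromosome 12, 113749032 to 113749057), and 2 intron sites at 51.4 and 67.5. Srms, a Src-related tyrosine kinase gene, had 2 at 65.3 and 71.8 (chromosome 2, 180947092 and 180947098). Hspa2, the gene of a testis heat shock protein, had 3 in its only exon at 51.2, 70.5 and 79.7 percentage points (chromosome 12, 77506034 to 77506235). Col11a2, a collagen of cartilage, had 2 sites in the 5′ UTR at 79.3 and 75.9 and 1 in the rest of exon 1 at 49.4 (chromosome 17, 34176521 to 34176670). Its 3 sites labelled promoter ranged from 57.2 to 69.3, between the lowest and highest of these. These 5 were chosen for their size, which is therefore a description.

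Losses were scattered over 9 genes, and 1 of these held more than 1 loss. Rn45s, the ribosomal RNA precursor gene, had losses of -67.3, -50.1 and -52.9 percentage points per the authors' deposited table at 39982939, 39982950 and 39982968 on chromosome 17, and a gain of 31.1 at 39982074. It was the only gene with listed 5′ UTR or first-exon sites in both directions. Its values are uncertain, since reads of its many near-identical copies cannot be told apart. Ppp1r3f, a regulatory subunit gene of phosphatase 1 on X (7150873), had -51.3 percentage points in exon 1 of 4. Crmp1, which encodes a protein of axon guidance signalling, had -42.2 percentage points in its 5′ UTR (chromosome 5, 37637277) and a gain of 34.6 in an intron. Prr23a2 had -41.9 on chromosome 9 (98757178) and Spin2c, a spindlin family gene on X (150267029), -35.1 in its 5′ UTR.

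The other 4 losses were under 30 percentage points. They were 1700029P11Rik on chromosome 15 (81811136, -29.2), the keratin gene Krt23 on chromosome 11 (99354324, -28.0), Uba1 on X (20240189, -27.2) and Spsb1 on chromosome 4 (149281277, -26.9) per the authors' deposited table. Uba1 encodes the main activating enzyme of ubiquitin. The Spsb1 site, in exon 2 of 3, lay 47838 bp from the nearest start, the farthest of all 422, and 2 intron sites of that gene gained 27.3 and 44.3 percentage points. Of the 11 losses 3 lay on X, as did 9 of the 411 gains and 130 of the 6756 listed sites of all features. How many of the 486 losses of all features lay on X was not counted, and the sex of the mice was not taken into account. No excess of losses on X can therefore be read from these counts.

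Groups of genes were read from 11 lists, which were written with earlier results of these data known, so the counts are descriptions without a test. A gain was listed for 202 of the 210 genes, so a list whose genes are all hypermethylated is near that share. Of all genes in the authors' deposited tables, 210 of 3312 (6.34%) had a 5′ UTR or first-exon site. Genes of G protein-coupled receptors, the largest family of cell surface receptors, stood above this with 11 of 65 (16.9%), all hypermethylated, and a median gain of 41.1 percentage points over 34 sites. Besides Gpr158 and Avpr1a they included Tacr3, the neurokinin B receptor gene, with 4 sites at 60.5, 51.2, 27.9 and 35.0 percentage points in exon 1 (chromosome 3, 134492254 to 134492280). Such genes often hold much of their coding sequence in their first exon, and exon length was not tested here.

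Genes of cell adhesion and extracellular matrix followed, with 18 of 115 listed genes (15.7%), all hypermethylated, and a median gain of 45.0 percentage points over 50 sites per the authors' deposited table. Of the 18 genes, 13 were protocadherins, adhesion proteins by which neurons tell themselves from others, a family singled out after its values were seen. Of 16 protocadherin genes listed under any feature 13 had such a site, so the share of the whole list rests largely on this family. Here too exon length was not tested. In the clusters on chromosome 18 each gene has a first exon of its own with its own promoter, spliced in the alpha and gamma clusters to shared last exons. Like 97.4% of all 5′ UTR and first-exon sites, all 34 protocadherin sites were gains (median 42.9, range 27.5 to 75.0 percentage points). Of these, 24 sites in 9 genes lay in the clusters, from 37249906 to 37912683, and 10 in 4 genes elsewhere.

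The alpha cluster held 13 of the 24, in its last 2 variable exons. Pcdhac1 had 7 sites from 32.3 to 56.4 with a median of 45.3 percentage points (37249906 to 37251678), and 2 promoter sites at 46.3 and 55.2. Pcdhac2 had 6 from 35.6 to 59.4 with a median of 43.3 (37304407 to 37304549). The gamma cluster had 7 sites in 4 genes, among them Pcdhga1 at 59.4, 34.4 and 75.0 percentage points per the authors' deposited table (37821784 to 37821796), and the beta cluster 4 sites in 3 genes, from 27.5 to 50.0. No site of these clusters under any feature was a loss: the tables held 27 sites nearest to or within the 9 genes, all gains. Losses made up 7.19% of all listed sites and 2.61% of 5′ UTR and first-exon sites. With so few sites, no trait of the clusters can be read from the absence of losses. Outside the clusters, Pcdh8 had 5 sites in exon 1 of 3 at 58.3, 41.7, 70.1, 62.5 and 43.0 (chromosome 14, 80168792 to 80170677). Its 2 sites in an intron and a later exon, at 50.3 and 51.5, lay within that range.

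**Figure D4:**
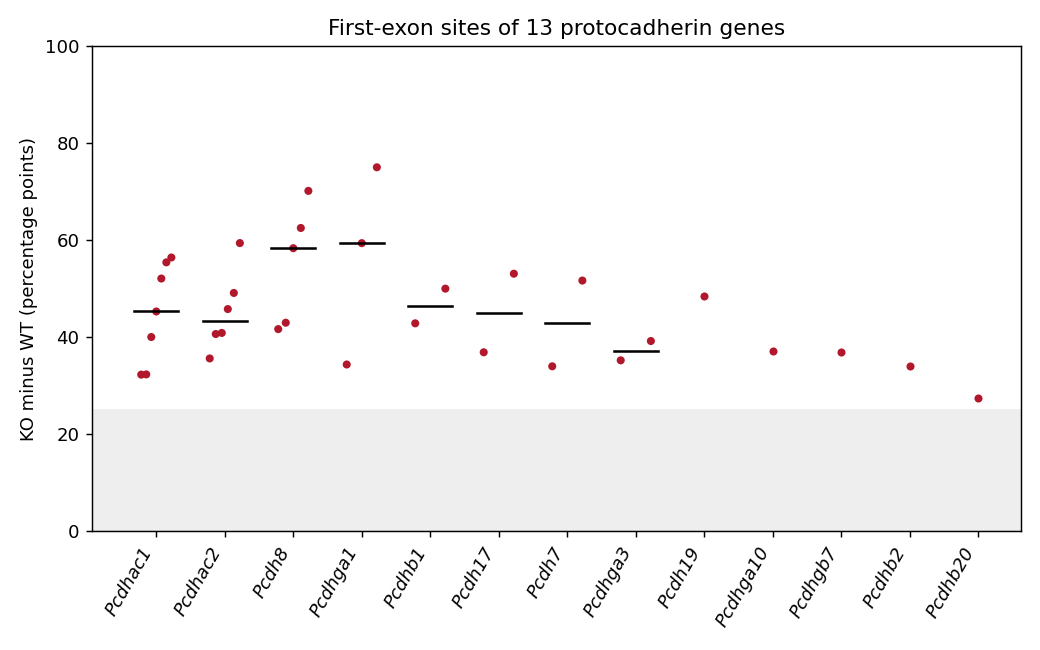
Methylation difference (KO minus WT, percentage points) of each first-exon site of the 13 protocadherin genes, ordered by number of sites; points are sites, black lines medians of genes with at least 2 sites, and the grey band the unlisted range. Values lie between 27.5 and 75.0. All 34 sites are gains, as are 411 of all 422 5′ UTR and first-exon sites.

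Genes of ion channels and transporters were the most numerous, with 20 of 191 listed genes (10.5%), all hypermethylated, and a median gain of 50.1 percentage points over 32 sites. Kcne1l, an accessory subunit gene of potassium channels on X, had 4 sites in its only exon at 55.7, 70.3, 65.7 and 57.5 percentage points per the authors' deposited table (138740250 to 138740501). Kcnc1, a voltage-gated potassium channel gene, had 3 at 50.3, 47.8 and 59.7 (chromosome 7, 53653607 to 53653614) and 4 intron sites from 39.0 to 62.2. Asic4, of the acid-sensing channel family, had 1 site in the 5′ UTR at 43.4 and 2 in the rest of exon 1 at 37.4 and 63.5 (chromosome 1, 75447398 to 75447690).

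Growth factor and morphogen signalling genes were listed for 7 of 91 (7.69%), near the share of all genes, with a median gain of 44.6 percentage points over 15 sites. Fzd1, a Wnt receptor gene, had 4 sites in its only exon at 86.4, 44.6, 54.4 and 47.6 percentage points per the authors' deposited table (chromosome 5, 4755955 to 4756415). Bmp8b, a TGF-β family ligand, had 3 at 63.0, 42.6 and 42.6 (chromosome 4, 122782706 to 122782729). Igfbp6, which binds insulin-like growth factors, had 2 at 46.6 and 46.0 (chromosome 15, 101975041 and 101975054). In the list of kinases, phosphatases and small GTPase regulators 8 of 155 genes (5.16%) had a site, 7 with gains and Ppp1r3f with a loss. They included Map3k10, a mixed lineage kinase gene, with 57.4 and 69.6 percentage points (chromosome 7, 28458478 and 28458511), and Rab11fip3, an endosome transport gene, with 47.1 and 55.0 (chromosome 17, 26204881 and 26204921). The list does not hold all such genes, and its share describes the list alone. Srms, Limk2 and Frk, which had gains, are outside it.

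In the list of developmental transcription factors, which does not hold all such genes, 4 of 130 genes (3.08%) had a 5′ UTR or first-exon site. There was 1 site in each, all gains, with a median of 34.4 percentage points. The transcription factor genes Bhlha9 and Hnf4g, with gains of 54.8 and 63.1, are outside the list, so this share describes the list alone. Hes2, a Notch target family gene, had 45.1 in its 5′ UTR (chromosome 4, 151533089), the homeobox gene Tlx2 36.2 in exon 1 (chromosome 6, 83019744) and Tfap2d 32.7 in its 5′ UTR (chromosome 1, 19093217) per the authors' deposited table. Of zinc finger and Krüppel-like genes 2 of 80 (2.50%) had a site: Zfp879 with 52.0 and 68.9 percentage points (chromosome 11, 50654895 and 50654902) and Zfp248 with 32.3 (chromosome 6, 118404783), all in 5′ UTRs. Myod1, the muscle determination factor, was in no list and was singled out after its values were seen; its 2 exon 1 sites gained 61.4 and 28.3 (chromosome 7, 53632067 and 53632090).

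Among the genes of blood cells, 2 of 31 listed lineage regulators and markers (6.45%) had a site. They were Epor, the erythropoietin receptor gene, with a gain of 54.0 percentage points in exon 1 of 8 (chromosome 9, 21767783), and Trim58, a ubiquitin ligase gene of red cell maturation, with 4 sites at 66.7, 63.0, 55.6 and 63.0 (chromosome 11, 58454180 to 58454229) per the authors' deposited table. Both belong to the red cell lineage. In the list of blood cancer genes and tumour suppressors, which does not hold all such genes, 1 of 23 (4.35%) had sites. This was Bcl2, with 37.0 and 50.0 on the forward and 39.6, 35.8 and 35.8 percentage points on the reverse strand. The sites lay 1443 to 1597 bp from the start of Bcl2 (chromosome 1, 108609270 to 108609424). Its first-exon gains were thus well away from the CpG-rich start printed above. Of 10 listed imprinted genes 1 had sites, Nap1l5, with 43.4 and 36.2 in its only exon (chromosome 6, 58856728 and 58856763). None of 26 listed genes of chromatin and DNA methylation regulators had a 5′ UTR or first-exon site, so none of the Tet and Dnmt genes did.

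**Figure D5:**
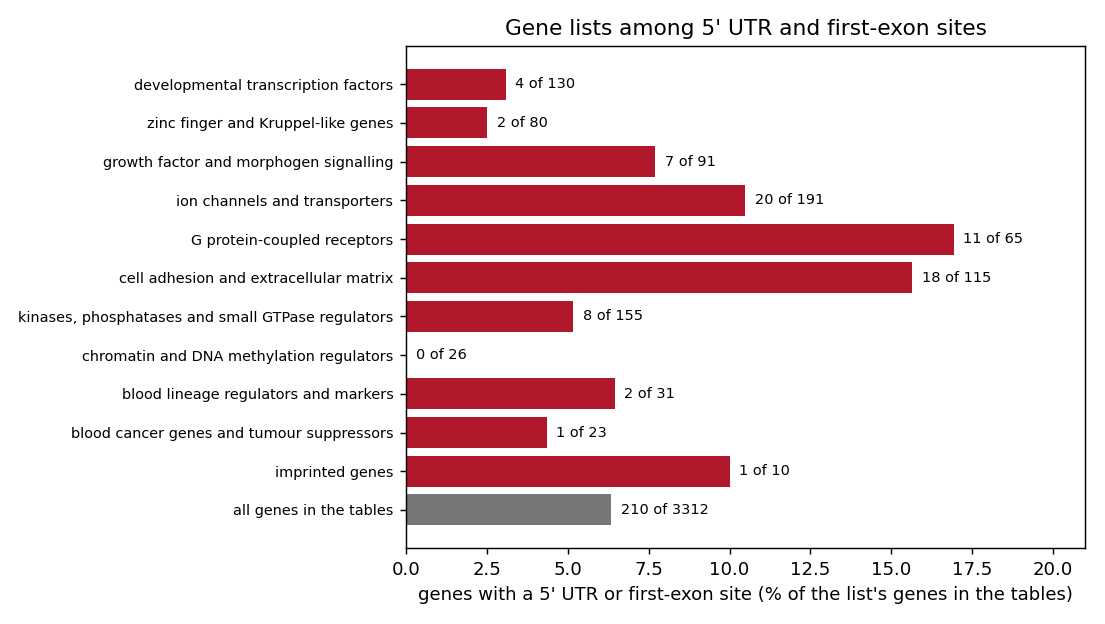
Genes with a 5′ UTR or first-exon site as a percentage of each list's genes found anywhere in the tables; labels give the counts, and the grey bar is the share over all genes (210 of 3312, 6.34%). G protein-coupled receptors (16.9%) and cell adhesion and matrix genes (15.7%) have the longest bars, and chromatin regulators have none. Of the 18 cell adhesion and matrix genes 13 are protocadherins.

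Transcripts of 1 exon, whose first exon is the whole gene, carried 96 of the 422 sites (22.7%) in 42 genes. Of these 91 were gains, with a median of 45.0 percentage points per the authors' deposited table, beside 44.7 for the 320 gains in transcripts of more exons. They lay farther from a start, at a median of 771 bp against 400.5 bp. Oxct2a, Ajm1, Rrs1, Slitrk1, Fzd1 and Kcne1l were among the genes with at least 4 gains there; Slitrk1 was named after its values were seen. Slitrk1, a neuronal membrane protein gene, had 5 from 40.5 to 71.6 with a median of 44.0 (chromosome 14, 109311028 to 109311177).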

How the data were processed

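Genomic DNA of LSK cells was bisulfite-converted and sequenced, and the submitters' processing notes name Bismark and the build mm9. The authors' deposited values are methylation differences in percentage points and distances in base pairs to the nearest start, per the file headers. Not given in the sources used here are the caller, its settings and how replicates entered it. There were 0 columns of per-sample values, so the planned test per sample was not run and depth is unknown.

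Transcripts were matched to genes through RefSeq (GRCm38.p6, names alone) for 406 of 422 sites and through the files for the other 16. Promoter windows were found for 149 of 210 genes (71.0%), so the planned check of promoter sequence over all genes is void, and single genes are described instead. The sign of the distance follows the strand of the cytosine, so absolute distances were used. Regions were built within each feature by joining same-sign sites under 1000 bp apart. Directions were compared with Fisher's exact test, two-sided, with Benjamini-Hochberg adjustment over 3 comparisons (scipy 1.17.1). The exact test was run on simulated independent sites, which does not show how it behaves for regions that share samples. The members and lists were chosen with earlier results of these data known. Named genes were the 10 with the most gains (ties by the larger mean, which placed Pcdh8 before Slitrk1, Dpp6 and Bcl2, with 5 sites each), the 5 largest means among others with at least 2 gains, all genes with a loss, and up to 3 genes per list. Alternatives were other joining distances, single sites, genes, at least 40 percentage points, autosomes, the forward strand, and kinds of members; leaving out Rn45s was added after seeing the data. One gene is not reported here.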

Additional observations from a re-analysis of the deposited data

How the results depend on the processing

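No paired analysis was possible because the files give no values per sample, and for the same reason no replicate could be left out. The hypermethylated share of 5′ UTR and first-exon regions (95.8%) stayed within its exact interval under all 11 alternatives, from 93.8% for 5′ UTR sites alone to 97.4% for single sites. The difference from promoters in the hypomethylated share (0.39 percentage points) did not pass in any setting, and its sign turned with single sites (-0.43), on the forward strand (-0.26), for first-exon sites outside the 5′ UTR (-0.63) and without Rn45s (-0.038); the cause was not tested. The difference from later exons did not pass at 40 percentage points (-1.41, with fewer regions tested), on the forward strand (-6.62, adjusted p = 0.0722 by Fisher's exact test) or for 5′ UTR sites alone (-4.51). The difference from all other regions did not pass at 40 percentage points (-3.71) or for 5′ UTR sites alone (-4.44, with fewer regions). The median gain was 41.7 percentage points for 5′ UTR sites alone. The number of genes was 212 when each site was given to its nearest start. Counts of sites and regions rest on cytosines that passed the authors' threshold, at a depth that is unknown.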
